A study of Mus musculus with 10 samples.

Results

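The immature and precursor B cell genes described here are Cd93, Vpreb3, Rag1, Rag2, Dntt, Igll1, Il7r, Lef1, Sox4 and Myb. They are 10 of the 19937 genes measured on the arrays, were chosen by symbol, and each is read by 1 probe set. Expression was measured on 10 Affymetrix Mouse Gene 1.0 ST arrays in splenic cells that had been FACS purified as B220+CD22+, that is, as B cells. The 3 wild-type arrays came from CBAxC57BL/6J mice without the transgene. The 3 Sca1-Bcl6(floxed) arrays, called floxed, came from mice of the same background whose transgene, built in the pLy6 vector, holds mouse Bcl6 with IRES-eGFP, flanked by loxP, and in which Sca1 (Ly6a) sequences drive expression. The 4 Sca1-Bcl6(delta) arrays, called delta, came from floxed mice bred to mb1-Cre mice, so that Cre, made in B lineage cells from the mb1 (Cd79a) locus, can remove the cassette. The labels do not say which transgenic line an array comes from, nor whether each array is a separate animal; p-values thus reflect only how far these samples spread, and that spread may be technical. Age is not given in the sources used here.

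B cells develop in the bone marrow through pro-B and pre-B stages. Rag1 and Rag2 encode the recombinase that cuts antibody gene segments, Dntt encodes the polymerase that adds bases at the joints, and Igll1 encodes the lambda5 part of the surrogate light chain of the pre-B cell receptor. Il7r encodes the receptor chain for interleukin 7, a growth factor of mouse pro-B and pre-B cells, and is also made by T cells. Newly formed B cells reach the spleen as transitional cells, which bear CD93 (AA4.1) on their surface and lose it as they mature. Vpreb3 encodes a small immunoglobulin-like protein that binds newly made heavy chains and is made from the precursor stages into the immature ones. Lef1, Sox4 and Myb encode transcription factors that promote the survival and growth of B cell precursors. The genes were therefore read in 3 groups: 2 transitional markers (Cd93 and Vpreb3), 3 transcription factors (Lef1, Sox4 and Myb), and 5 strictly pro-B and pre-B genes (Rag1, Rag2, Dntt, Igll1 and Il7r).

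The DNA upstream of 9 of the 10 genes was matched by symbol to RefSeq promoters (GRCm38.p6). The stretches of Vpreb3, Lef1, Sox4 and Myb are shown because these 4 genes lay below wild-type together with Cd93 in the results that follow. Each is the 250 bases before the outermost listed start, 5′ to 3′ on the strand of the gene, at chr10:75948050-75948299 (+) for Vpreb3, chr3:131110047-131110296 (+) for Lef1, chr13:28953700-28953949 (-) for Sox4 and chr10:21160985-21161234 (-) for Myb. Capitals mark matches to any of 6 motifs, searched on both strands.
Vpreb3: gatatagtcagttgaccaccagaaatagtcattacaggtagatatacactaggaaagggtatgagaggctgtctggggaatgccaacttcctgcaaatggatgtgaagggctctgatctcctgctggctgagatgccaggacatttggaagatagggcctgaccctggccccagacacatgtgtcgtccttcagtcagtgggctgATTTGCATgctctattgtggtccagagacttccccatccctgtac
Lef1: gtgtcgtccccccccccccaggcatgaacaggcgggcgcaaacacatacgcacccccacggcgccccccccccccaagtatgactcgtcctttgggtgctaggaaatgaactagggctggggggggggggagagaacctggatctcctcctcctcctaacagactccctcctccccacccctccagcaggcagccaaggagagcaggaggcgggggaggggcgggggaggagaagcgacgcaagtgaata
Sox4: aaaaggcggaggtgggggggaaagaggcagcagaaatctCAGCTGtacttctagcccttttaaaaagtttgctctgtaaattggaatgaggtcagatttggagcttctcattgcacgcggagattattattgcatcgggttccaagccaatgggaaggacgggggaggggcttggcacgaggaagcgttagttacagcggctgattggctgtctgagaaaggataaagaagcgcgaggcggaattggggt
Myb: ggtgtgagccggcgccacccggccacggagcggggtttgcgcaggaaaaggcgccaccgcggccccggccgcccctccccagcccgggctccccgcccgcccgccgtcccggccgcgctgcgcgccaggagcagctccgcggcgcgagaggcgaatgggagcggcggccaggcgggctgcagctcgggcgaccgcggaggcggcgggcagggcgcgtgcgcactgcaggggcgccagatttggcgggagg
The octamer ATTTGCAT, a known element of immunoglobulin promoters that POU factors bind, was present in Vpreb3, 45 bases before the start, and in 1.6% of all 32851 promoters of that length. The E-box CAGCTG, which E2A proteins bind, was present in Sox4 and also in Rag1 and Igll1, against 13.0% of all promoters. The other E-box, CACCTG, was present in Rag1 and Igll1 (17.2% of all), the EBF1 core CCCNNGGG in Igll1 (11.8%), and the BCL6 and STAT core TTCNNNGAA in Il7r (7.02%). The LEF and SOX core ACAAAG was present in none of the 9 stretches and in 16.5% of all promoters. No matches overlapped within the 4 stretches shown. Lef1 and Myb held no match to the 6 motifs, which says only that these letters are not in these windows.

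The median RMA intensity per array was 139 to 145, and arrays correlated across genes at 0.993 to 0.997 within groups and 0.989 to 0.996 between groups. The mean log2 level of 7 B cell genes was 12.92 to 13.01 in wild-type, 12.91 to 13.03 in floxed and 12.80 to 12.91 in delta arrays. Every delta array thus lay below every wild-type array in this mean. The 7 genes include Cd79a, the mb1 locus from which Cre is made in delta mice. Cd79a alone was at 13.29 to 13.39 in wild-type and 12.82 to 12.89 in delta arrays. How far the lower mean rests on Cd79a was not tested. Xist and 3 Y-linked genes gave a female pattern in 3 of 3 wild-type arrays, a male pattern in 3 of 3 floxed arrays, and a male pattern in 1 of 4 delta arrays (delta 1), so sex and genotype cannot be told apart in floxed against wild-type. The mean log2 level of 14 T cell genes was 6.45 to 6.68 in wild-type and 6.47 to 6.78 in delta arrays, and 7.20, 6.58 and 7.00 in floxed 1, 2 and 3. Mean levels of 10 myeloid genes (6.59 to 6.65 in wild-type and 6.83 to 7.24 in floxed arrays), 7 erythroid genes (7.34 to 7.71 and 7.85 to 8.27) and 10 NK cell genes (5.72 to 5.83 and 5.94 to 6.39) were also higher in floxed arrays. Bcl6, the gene in the transgene, had mean log2 levels of 10.05, 9.88 and 9.70 in wild-type, floxed and delta arrays (limma adjusted p = 0.688 and 0.578 against wild-type). Whether its probe set reads RNA of the transgene was not tested.

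The first comparison, of floxed with wild-type arrays, asked what is different when the intact transgene is present. Cd93 fell 2.99-fold and was the only one of the 10 genes to pass the threshold, an adjusted p of 0.05 in limma. Myb, Lef1, Sox4 and Vpreb3 lay lower in every floxed array than in every wild-type array but did not pass. Rag1, Rag2, Dntt and Igll1 differed by no more than 0.15 on the log2 scale, with intervals that include 0. Il7r lay above every wild-type array in 2 of the 3 floxed arrays. The call of 1 in 10 genes stands beside 0.552% of all genes (0.161% in the lower direction). An unadjusted p under 0.05 was found for 5 of the 10 genes, beside 12.8% of all genes. Groups did not overlap in 5 of the 10 genes, all lower, beside 16.7% of all genes in either direction and 9.13% in the lower one. The median change of the 10 genes was -0.28, against -0.024 over all genes, and 9 of 10 lay below 0, beside 58.1% of all genes.

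The comparison of delta with wild-type arrays asked what is different where Cre can remove the transgene in B lineage cells. Delta mice also carry Cre in the mb1 (Cd79a) locus, and no array came from mice with Cre alone. Effects of Cre and of the transgene thus cannot be told apart in this comparison. Cd93, Myb, Vpreb3 and Lef1 had the lowest estimates, and 0 of 10 passed the threshold in limma, beside 0.0752% of all genes. At an unadjusted p under 0.05 there were 5 of 10, beside 7.89% of all genes. Groups did not overlap in 5 genes (Cd93, Myb, Lef1, Sox4 and Rag2), all lower, beside 9.25% of all genes in either direction and 5.5% in the lower one. The median change was -0.25, against -0.014 over all genes. Both comparisons use the same wild-type arrays, so their likeness is not independent evidence. Delta against floxed, which shares no wild-type array, had a median of 0.0028 over the 10 genes, with 4 of 10 below 0, beside 47.9% of all genes. In it 0 of 10 passed in limma, beside 0.00502% of all genes, and 1 of 10 had an unadjusted p under 0.05, beside 6.42%. Groups did not overlap in 0 of 10, beside 6.96%. Floxed and delta arrays also differ in sex pattern (male in 3 of 3 and 1 of 4) and in Cre. These cannot be told apart from removal of the transgene in delta against floxed. In the same comparison 14 of 14 T cell genes lay below 0.

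**Figure D1:**
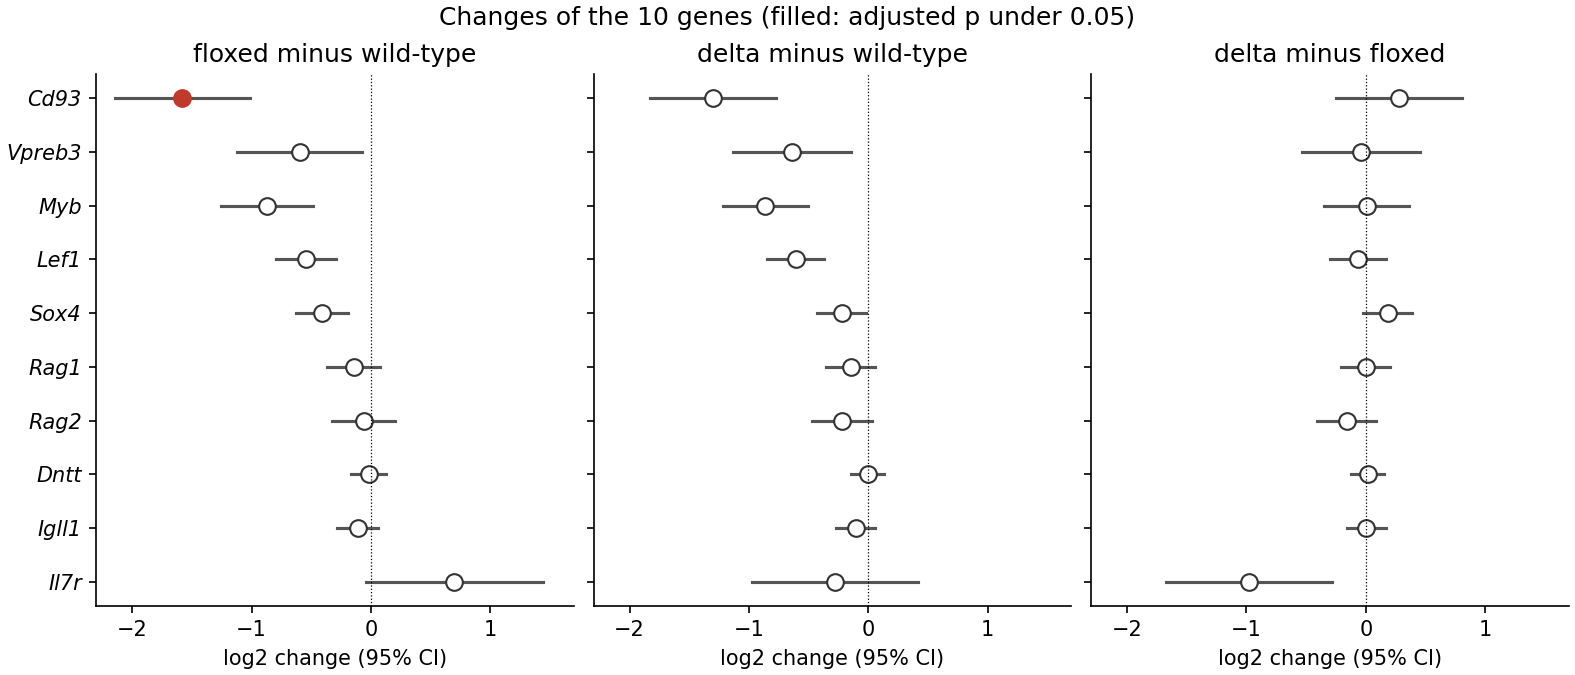
Log2 changes of the 10 genes in the 3 comparisons, with points for the estimates of the limma fit, lines for their 95% confidence intervals and a filled point for an adjusted p under 0.05. Cd93 in floxed minus wild-type is the only filled point, at -1.58, and in delta minus floxed the intervals of all genes but Il7r include 0.

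Cd93 is the marker that defines transitional cells in the spleen. Its log2 level was 8.27, 8.88 and 7.77 in wild-type 1, 2 and 3, and 6.68, 6.57 and 6.92 in floxed 1, 2 and 3. It was 7.09, 7.37, 7.06 and 6.50 in delta 1 to 4. Every floxed and every delta array thus lay below the lowest wild-type array, and floxed and delta arrays overlapped. The mean Cd93 intensity was 332 ± 128 (SD, n = 3) for wild-type arrays. For floxed arrays it was 106 ± 13.4 (SD, n = 3), and for delta arrays 131 ± 30.8 (SD, n = 4). Cd93 fell by 1.58 in log2 units between wild-type and floxed, which is 2.99-fold (SE 0.26, 95% CI -2.14 to -1.01, limma adjusted p = 0.0282). In delta against wild-type the difference of Cd93 was -1.30, or 2.47-fold (SE 0.24, 95% CI -1.83 to -0.77), with an adjusted p of 0.122 in limma. Without wild-type replicate 3 it passed (-1.57, adjusted p = 0.0465), and it stayed short of the threshold in 20 of 21 alternative fits. Delta minus floxed was 0.28 (95% CI -0.25 to 0.81, adjusted p = 0.879). In RNA from bulk cells, fewer CD93-bearing cells and less Cd93 RNA per cell cannot be told apart.

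The call on Cd93 in floxed against wild-type rested on few arrays. It ended without wild-type replicates 1 or 2 (limma adjusted p = 0.0801 and 0.0783) and without floxed replicates 1, 2 or 3 (0.0717, 0.104 and 0.0721), and over all 21 alternatives the adjusted p ran from 0.00692 to 0.484 with estimates from -1.85 to -1.29. With the sex pattern as a covariate the estimate was -1.69 (SE 0.46, adjusted p = 0.484). In every fit with this covariate the sex effect is set by delta 1 alone against the other delta arrays. It therefore cannot separate sex from genotype in floxed against wild-type. Within the delta group the male-pattern array, delta 1, lay at 7.09, between the other delta arrays at 6.50 and 7.37. Without delta 1, so that only female-pattern arrays stood on both sides, delta minus wild-type was -1.33 (SE 0.27, limma adjusted p = 0.219). The spread in that fit was still estimated with the male-pattern floxed arrays. Floxed 2, whose T cell gene mean lay in the wild-type range, had the lowest Cd93 of the floxed arrays. That array was nonetheless above the wild-type mean in its erythroid (0.58), myeloid (0.25) and NK cell (0.15) gene means.

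**Figure D2:**
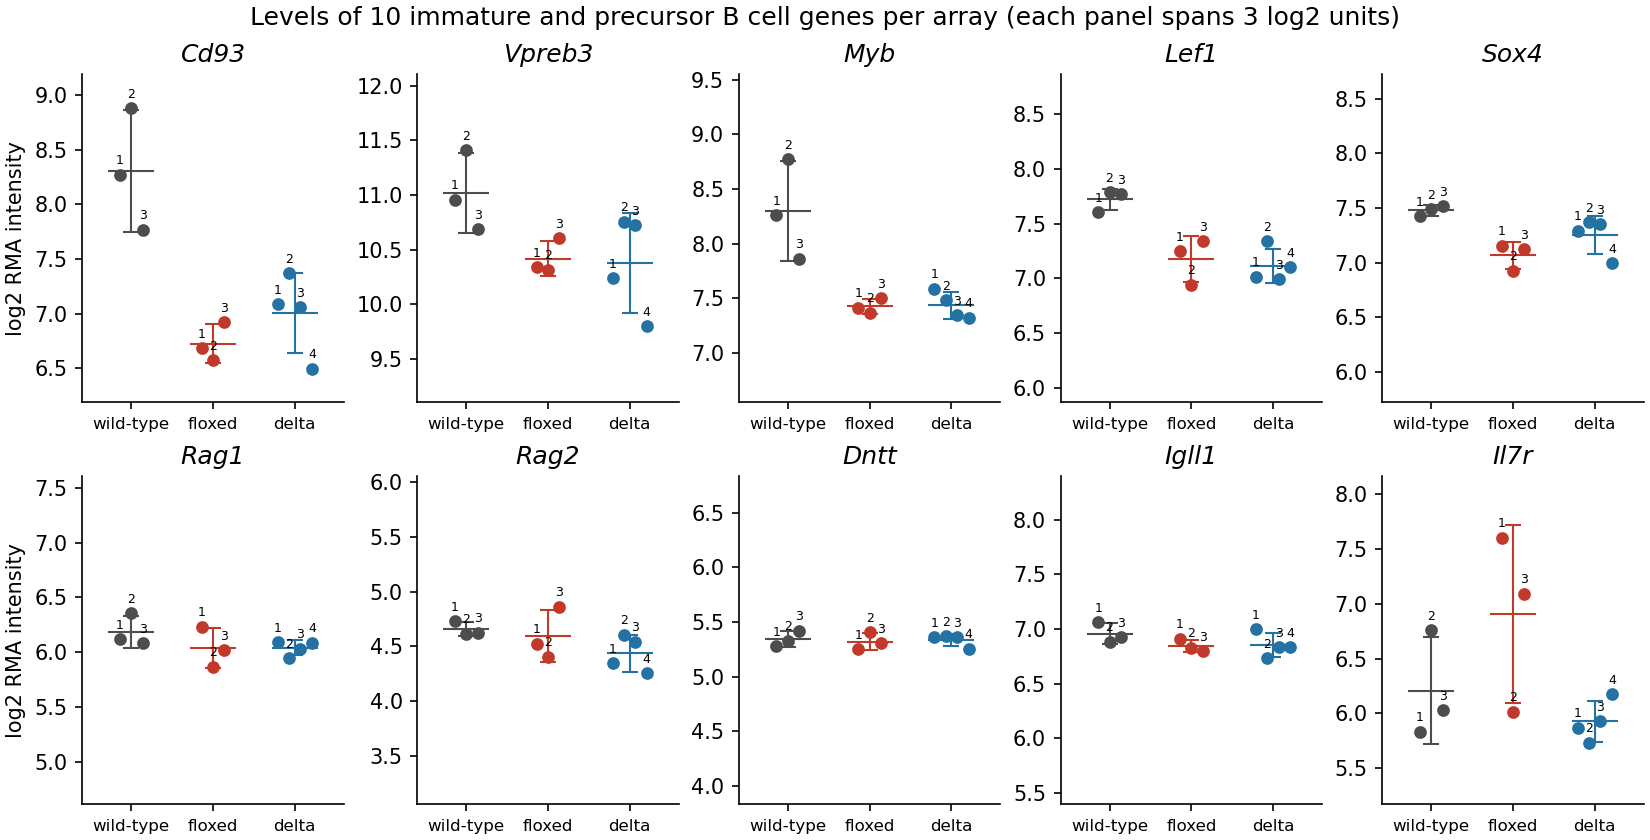
Log2 RMA intensity of each gene on each array, with small numbers for the replicate, horizontal lines for group means and bars for the SD (n = 3, 3 and 4). Cd93, Vpreb3, Myb, Lef1 and Sox4 lie highest in wild-type arrays, with the groups apart in floxed against wild-type, while Dntt spans 0.17 over all 10 arrays.

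Vpreb3, whose promoter stretch holds the octamer, had log2 levels of 10.96, 11.41 and 10.68 in wild-type and 10.34, 10.32 and 10.60 in floxed arrays. In delta 1 to 4 it was 10.24, 10.75, 10.72 and 9.80. Every floxed array lay below the lowest wild-type array, and delta 2 and 3 reached above the lowest wild-type array. The difference was -0.60 (SE 0.24, adjusted p = 0.327 in limma) in floxed and -0.64 (SE 0.22, adjusted p = 0.480) in delta against wild-type. Delta minus floxed was -0.041 (95% CI -0.53 to 0.45).

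Among the transcription factors, Myb, which precursors need to survive, had the largest difference. Its log2 level was 8.26, 8.77 and 7.86 in wild-type, 7.41, 7.37 and 7.50 in floxed, and 7.59, 7.48, 7.35 and 7.33 in delta arrays. No floxed or delta array reached the wild-type range, and the floxed and delta arrays lay within 7.33 to 7.59 while wild-type arrays ran from 7.86 to 8.77. The Myb difference was -0.87 in floxed (1.83-fold, SE 0.17, adjusted p = 0.0568 in limma) and -0.86 in delta against wild-type (1.82-fold, SE 0.16, adjusted p = 0.133). Delta minus floxed was 0.0083 (95% CI -0.35 to 0.37). Leaving out wild-type replicate 3 brought Myb past the threshold in both comparisons (-1.09 and -1.08, adjusted p = 0.0119 and 0.0340), and leaving out delta replicate 4 did so in floxed against wild-type (adjusted p = 0.0460). A delta array enters that comparison only through the shared estimate of spread. Myb stayed short of the threshold in 17 of 21 alternatives in floxed and in 20 of 21 in delta against wild-type.

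Lef1, a mediator of Wnt signals that promotes pro-B cell growth, had log2 levels of 7.61, 7.79 and 7.77 in wild-type and 7.25, 6.94 and 7.34 in floxed arrays. In delta 1 to 4 it was 7.02, 7.34, 6.99 and 7.10. Every floxed and delta array lay below the lowest wild-type array. The Lef1 difference was -0.54 (SE 0.12, adjusted p = 0.0649 in limma) in floxed and -0.61 (SE 0.11, adjusted p = 0.0968) in delta against wild-type. Without delta replicate 2 it passed in both comparisons (adjusted p = 0.0483 and 0.0490). Lef1 stayed short of the threshold in 18 of 21 alternatives in floxed and in 20 of 21 in delta against wild-type. With the sex pattern as a covariate, which rests on delta 1, the Lef1 difference was -0.42 (SE 0.20) in floxed and -0.58 (SE 0.12) in delta against wild-type.

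Sox4, an HMG-box factor needed for pro-B cells, had tight wild-type levels of 7.43, 7.49 and 7.52. It was 7.16, 6.93 and 7.13 in floxed arrays, and 7.29, 7.37, 7.35 and 7.00 in delta arrays. Delta 4 lay among the floxed arrays, and the other 3 delta arrays lay between the floxed and the wild-type arrays. The Sox4 difference was -0.41 (SE 0.10, adjusted p = 0.102 in limma) in floxed and -0.22 (SE 0.094, adjusted p = 0.581) in delta against wild-type, and delta minus floxed was 0.18 (95% CI -0.022 to 0.39). Without delta replicate 4 Sox4 passed in floxed against wild-type (adjusted p = 0.0267). It stayed short of the threshold there in 20 of 21 alternatives, with estimates from -0.55 to -0.34 over all 21.

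The strictly pro-B and pre-B genes showed no such step. Rag1 had log2 levels of 6.08 to 6.36 in wild-type, 5.87 to 6.23 in floxed and 5.95 to 6.09 in delta arrays. Its difference was -0.15 in both comparisons against wild-type (95% CI -0.37 to 0.074 in floxed and -0.35 to 0.060 in delta). Rag2 had 4.61 to 4.73 in wild-type, 4.40 to 4.86 in floxed and 4.25 to 4.61 in delta arrays. Its delta arrays lay just below the wild-type arrays, with a difference of -0.22 (95% CI -0.47 to 0.027, limma adjusted p = 0.691), against -0.060 (95% CI -0.33 to 0.20) in floxed. Dntt, the polymerase gene, was the least variable member, at 5.25 to 5.42 over all arrays, with differences of -0.020 (95% CI -0.17 to 0.13) in floxed and -0.0053 (95% CI -0.14 to 0.13) in delta against wild-type. Igll1 had 6.88 to 7.06 in wild-type, 6.79 to 6.91 in floxed and 6.73 to 7.00 in delta arrays, with differences of -0.11 in both comparisons (95% CI -0.29 to 0.060 and -0.27 to 0.055). The deposited values carry no detection call, so whether these 4 probe sets lay above background, and so could show a fall, is not known here.

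Il7r differed in pattern from all other members. Its log2 level was 5.83, 6.76 and 6.03 in wild-type, 7.61, 6.01 and 7.09 in floxed, and 5.87, 5.73, 5.93 and 6.17 in delta arrays. It was high in floxed 1 and 3 and in wild-type 2, and floxed 2 lay with the low arrays. The difference was 0.70 (SE 0.34, adjusted p = 0.420 in limma) between floxed and wild-type, -0.28 (SE 0.32, adjusted p = 0.905) in delta against wild-type, and -0.98 (SE 0.32, 95% CI -1.67 to -0.28, adjusted p = 0.712) in delta against floxed. Floxed 1 and 3 were also the arrays with the highest mean of T cell genes. With that mean as a covariate Il7r was -0.079 (SE 0.19) in floxed against wild-type. Among the T cell genes themselves, 14 of 14 lay above 0 in floxed against wild-type, beside 8359 of all 19937 genes. Of the 14, 0 passed the threshold in limma and 6 had an unadjusted p under 0.05, beside 12.8% of all genes. The smallest p was found for Cd3d at 0.42 (adjusted p = 0.100) and Cd28 at 0.44 (adjusted p = 0.178), and the largest change for Cd3g at 1.36 (adjusted p = 0.330).

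**Figure D3:**
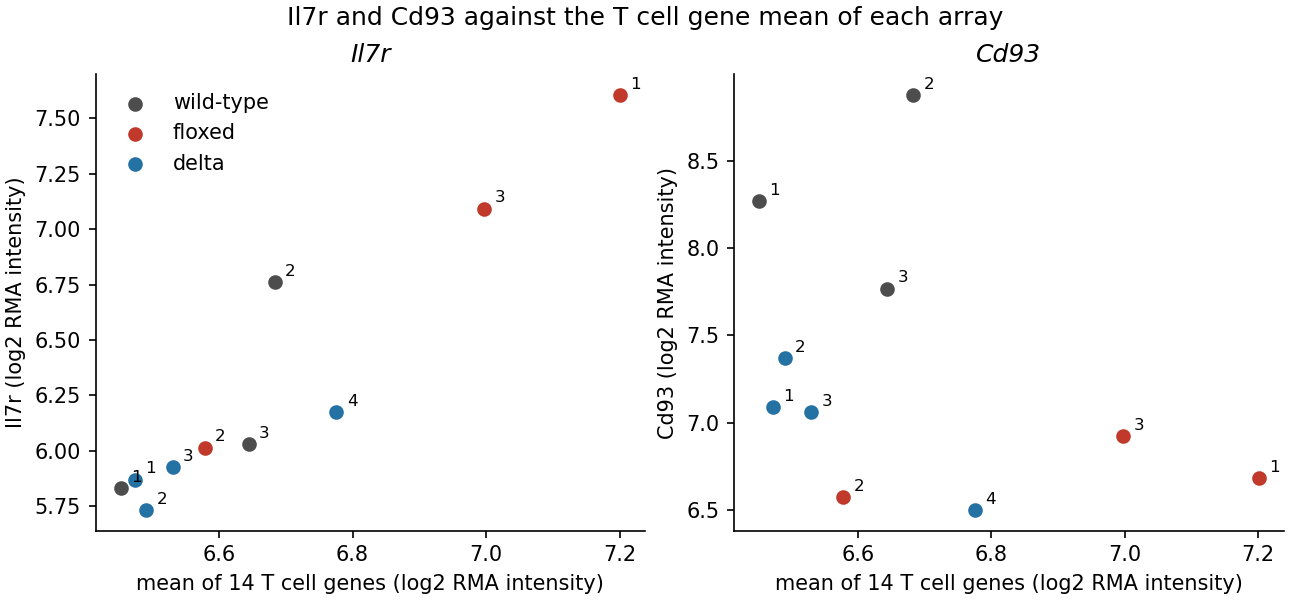
Il7r (left) and Cd93 (right) on each array against the mean of 14 T cell genes, both in log2 RMA intensity, with the replicate number beside each point. Il7r is highest at 7.61 and 7.09 in floxed 1 and 3, where the T cell mean is 7.20 and 7.00, whereas Cd93 is at 6.57 in floxed 2, where that mean is 6.58.

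By Pearson correlation, Myb and Vpreb3 were the members closest to Cd93 across arrays. Wild-type 2 had the highest level of Cd93, Vpreb3, Myb, Lef1 and Rag1, delta 4 the lowest of Cd93, Vpreb3, Myb and Rag2, and floxed 2 the lowest of Lef1, Sox4 and Rag1. Delta 4 also had the highest myeloid gene mean of its group (7.17, against 6.69 to 6.76) and the highest T cell gene mean (6.78, against 6.47 to 6.53). Without delta 4, delta minus wild-type was -1.13 for Cd93, -0.83 for Myb, -0.61 for Lef1 and -0.14 for Sox4. Over the 10 arrays, which fall into 3 groups, the Pearson correlation with Cd93 was 0.96 for Myb, 0.89 for Vpreb3, 0.84 for Lef1 and 0.83 for Sox4. It was 0.57 for Rag1, 0.48 for Rag2, 0.39 for Igll1, 0.08 for Dntt and -0.12 for Il7r. With group means subtracted it stayed at 0.89 for Vpreb3 and 0.86 for Myb, and was 0.54 for Sox4 and 0.35 for Lef1. Between Vpreb3 and Myb it was then 0.58, and the highest of all member pairs was Rag1 with Il7r at 0.92. By Spearman correlation over the 10 arrays Sox4 was closest to Cd93 (0.93), before Myb (0.88) and Vpreb3 (0.83). Of all genes, those most like Cd93 over the 10 arrays were Akap12, a kinase scaffold gene (Pearson 0.98), Glcci1 (0.97) and Treml2 (0.97). Akap12 was also the gene most like Myb (0.98), before Nuak1 (0.97) and Fam53b (0.96). Those most like Vpreb3 were Cmtm7 (0.97), Dipk2a (0.95) and Mast2 (0.94). Those most like Il7r were the T cell signalling kinase gene Prkcq (0.98) and the T cell receptor complex and coreceptor genes Cd3e (0.97) and Cd8b1 (0.96).

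Further genes listed for the same stages moved unevenly. Of 7 other measured genes listed as transitional, 1 fell, 0 rose and 6 did not pass in floxed against wild-type, with a median of -0.12. Whether the genes of this list are particular to transitional cells was not tested. Bmf, a pro-apoptotic BH3-only gene, fell by 1.04 on the log2 scale (SE 0.17, limma adjusted p = 0.0282), from 9.0, 9.40 and 9.68 in wild-type to 8.50, 8.03 and 8.43 in floxed arrays. In delta 1 to 4 it was 8.51, 8.84, 8.61 and 8.42. Marcks, a membrane-bound kinase substrate, was at -0.67 in floxed minus wild-type (adjusted p = 0.0857) and -0.76 in delta minus wild-type (adjusted p = 0.127), with groups that did not overlap in either. Cd72, a B cell coreceptor gene, lay the other way, at 11.55 to 12.14 in wild-type and 12.25, 12.77 and 12.41 in floxed arrays (0.68, adjusted p = 0.0924), with 0.40 in delta minus wild-type (adjusted p = 0.516). Cd24a, the heat-stable antigen that is high on transitional cells, was at -0.18 and -0.24 (adjusted p = 0.614 and 0.702). Of the 7 genes 0 passed in limma in delta against wild-type. In that comparison 3 had an unadjusted p under 0.05 (Bmf and Marcks lower, Cd72 higher), beside 7.89% of all genes.

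Of 16 other pro-B and pre-B genes, 1 fell, 0 rose and 15 did not pass in floxed against wild-type, with a median of -0.076. An unadjusted p under 0.05 was found for 4 of 16, beside 12.8% of all genes: Bst1 and Cplx2 lower, Flt3 and Spn higher. Groups did not overlap in 6 of 16, in both directions, beside 16.7% of all genes. Cplx2 was at -0.25 (limma adjusted p = 0.122) and Spn at 0.72 (0.239). The gene that fell was Bst1, the surface antigen BP-3 (CD157), at 6.49, 6.79 and 6.67 in wild-type against 6.23, 6.04 and 6.14 in floxed arrays (log2 -0.51, SE 0.10, limma adjusted p = 0.0453). In delta arrays Bst1 was 6.16 to 6.46, below all wild-type arrays (-0.33, adjusted p = 0.317). Flt3, a cytokine receptor of early progenitors, lay the other way, at 6.65 to 6.91 in wild-type and 7.37, 8.37 and 7.59 in floxed arrays (1.02, adjusted p = 0.0558). Vpreb1, the partner of Igll1 in the surrogate light chain, was at 0.054 (adjusted p = 0.913), and the B lineage factors Ebf1 and Pax5 were at -0.068 and -0.084. In delta against wild-type 0 of 16 passed in limma, with a median of -0.023 and 4 at an unadjusted p under 0.05, beside 7.89% of all genes. The call on Bmf ended without wild-type replicates 2 or 3 or any floxed replicate (adjusted p of 0.0518 to 0.113). That on Bst1 ended without any wild-type or floxed replicate or delta replicate 2 (0.0567 to 0.160) and with the replicate number as a block (0.0839). With the sex pattern as a covariate, which rests on delta 1, Bmf was at -0.93 (adjusted p = 0.578) and Bst1 at -0.70 (adjusted p = 0.365).

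**Figure D4:**
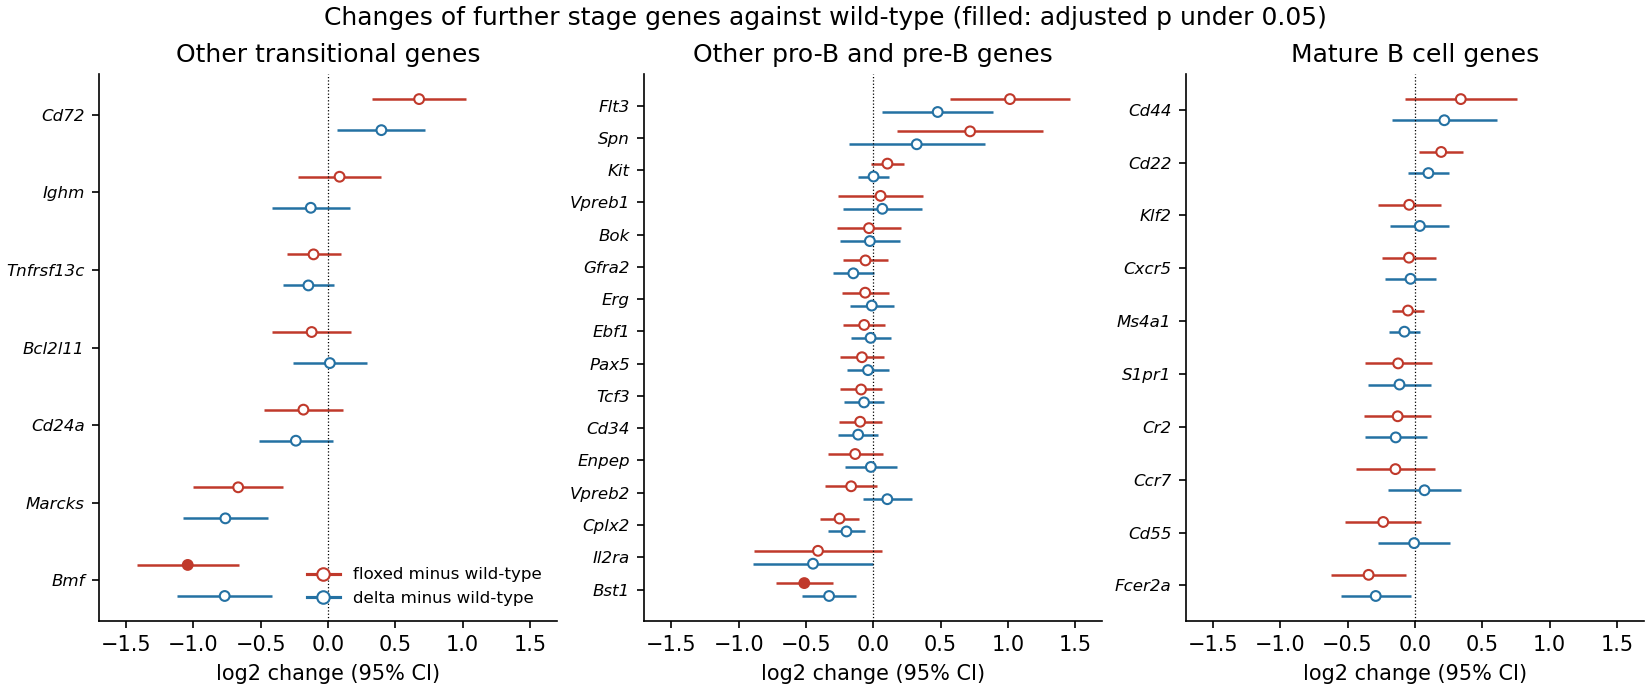
Log2 changes against wild-type, with 95% confidence intervals, of other transitional genes (left), other pro-B and pre-B genes (middle) and mature B cell genes (right), in red for floxed and blue for delta. Bmf at -1.04 and Bst1 at -0.51 in floxed are the only filled points (adjusted p under 0.05).

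Genes that mark mature B cells lay below 0 in 8 of 10 (floxed) and 6 of 10 (delta) against wild-type, beside 58.1% and 56.4% of all genes. The medians were -0.088 and -0.019, and 0 passed in limma in either comparison. An unadjusted p under 0.05 was found for 2 (floxed) and 1 (delta), beside 12.8% and 7.89% of all genes. Groups did not overlap in 2 genes in floxed (Fcer2a lower, Cd22 higher) and 2 in delta arrays (Fcer2a and Ms4a1 lower), beside 16.7% and 9.25% of all genes. Fcer2a, the IgE receptor CD23, was at -0.34 and -0.29 (adjusted p = 0.284 and 0.573), and Cr2, the complement receptor CD21, at -0.13 and -0.14. Cd22, the gene of the sorting antigen, was at 0.20 and 0.10 (adjusted p = 0.293 and 0.800).

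Lists of the machinery around the members held 1 gene past the threshold. Of 11 genes of V(D)J recombination and end joining 0 passed in limma in either comparison, with medians of -0.022 (floxed) and -0.053 (delta) and with 0 and 1 at an unadjusted p under 0.05. The ligase gene Lig4 was at -0.10 and -0.17. Of 9 genes of the interleukin 7 receptor pathway 0 passed, with 2 and 1 at an unadjusted p under 0.05 and medians of 0.0072 and 0.0041. Among them the survival gene Mcl1 was at -0.16 and -0.24, and Crlf2, the receptor chain for the related cytokine TSLP, at 0.20 and 0.076. Of 7 further genes of the LEF/TCF, SoxC and Myb families 0 passed, with 1 and 1 at an unadjusted p under 0.05, and Tcf7l2 was at -0.22 and -0.18. Of 12 genes of pre-B cell receptor signalling 0 passed in floxed and 1 fell in delta arrays against wild-type. That gene was Cd79a, the mb1 locus itself (-0.48, adjusted p = 0.0427). At an unadjusted p under 0.05 there were 1 of 12 in floxed and 4 of 12 in delta arrays, beside 12.8% and 7.89% of all genes. Besides Cd79a, the 4 were the transcription factor genes Irf4 (0.38, adjusted p = 0.455) and Irf8 (0.16, adjusted p = 0.561) and the kinase gene Syk (0.22, adjusted p = 0.620), all higher. In floxed arrays it was Irf8 (0.32, adjusted p = 0.0684). Groups did not overlap with wild-type in 5 (floxed) and 4 (delta) of 12, beside 16.7% and 9.25% of all genes. These went both ways: in floxed arrays Plcg2, Irf4 and Irf8 lay higher and Cd79b and Btk lower. In delta arrays Irf4 and Irf8 lay higher and Cd79a and Cdkn1b lower. The Cd79a call ended without wild-type replicates 1 or 2, floxed replicates 1 or 3 or delta replicates 1 or 3 (adjusted p of 0.0519 to 0.211).

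Markers of other cells that a spleen sort can retain stood beside these values. In floxed against wild-type the median was 0.16 over 10 NK cell genes, 0.15 over 10 myeloid genes, 0.56 over 7 erythroid genes and -0.066 over 8 plasmacytoid dendritic cell genes. In each list 0 passed the threshold in limma. At an unadjusted p under 0.05 there were 3, 4, 4 and 2, beside 12.8% of all genes. Examples are Prf1 at 0.81 (adjusted p = 0.106), Adgre1 at 1.91 (0.0809), Car1 at 0.56 (0.0568) and Irf7 at -0.36 (0.150). In delta against wild-type the medians were -0.031, -0.0097, 0.084 and -0.039. Over the 14 T cell genes it was -0.049. The mean of the myeloid genes was nonetheless above wild-type in every delta array (6.69 to 7.17, against 6.59 to 6.65), with Adgre1, the macrophage antigen F4/80, at 1.35 (limma adjusted p = 0.376). Of the 7 B cell genes 0 passed in floxed against wild-type, with 1 at an unadjusted p under 0.05. In delta against wild-type 6 of the 7 lay below 0, beside 56.4% of all genes, and 1 of them, Cd79a, fell past the threshold. The part of the other cells in the values of the floxed and delta arrays was not tested, except for the T cell mean as a covariate, with which, in floxed against wild-type, Cd93 was at -1.51 (SE 0.33, adjusted p = 0.165), Myb at -0.88 (SE 0.23) and Lef1 at -0.69 (SE 0.13).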

How the data were processed

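RNA of B220+CD22+ spleen cells, extracted with TRIzol and RNeasy per the labels' protocols, was hybridised to 1 array per sample (3 wild-type, 3 floxed, 4 delta). The authors deposited linear RMA intensity values per probe set; the RMA software and its settings were not stated. Their log2 was taken. Of 34760 probe sets 21640 have 1 symbol in the platform annotation, 1321 several and 11799 none; the brightest probe set stood for each of 19937 genes, and 954 genes had several. Group means over all 10 arrays were fitted with limma 3.58.1 in R 4.3.3 (lmFit, eBayes), two-sided, with Benjamini-Hochberg adjustment over all genes and a threshold of 0.05; the pipeline was tested on simulated data. The number of arrays limits precision. The members and lists were chosen with earlier results of these data known. Named genes were all members, Bcl6, up to 4 genes per list past the threshold, otherwise the 2 with the smallest p, and the 3 genes most correlated with each member that spans at least 1 on the log2 scale. Cd24a, Cd72, Marcks, Flt3, Spn, Cplx2, Vpreb1, Ebf1, Pax5, Cr2, Ms4a1, Cd3g, Irf4, Irf8 and Syk were added after their values were seen. Alternatives covered normalization, filters, priors, weights, covariates, the replicate block and leaving out each array.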

Additional observations from a re-analysis of the deposited data

Results flagged for a closer look

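Within the 4 delta arrays, Dntt stood out in delta 4, at a log2 level of 5.26 against 5.36, 5.37 and 5.36 in delta 1, 2 and 3. The gap took up most of the range of that group and passed Dixon's critical value for 4 samples, although the range itself is narrow and wild-type 1 (5.28) and floxed 1 (5.25) lay at the same level. Such a gap arises by chance in a small share of groups, and 10 genes were looked at.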

How the results depend on the processing

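No alternative brought a member past the threshold in delta against floxed. In floxed against wild-type 1 member passed as reported, 3 passed with dim genes left out and with array weights, and 0 with a trended robust prior, the sex pattern or the T cell mean as a covariate, or floxed 2 as the sole floxed array, an alternative added after the data were seen, in which that array is assumed to vary like the other groups. Leaving out one array gave 0 to 3 members there and 0 to 2 in delta against wild-type. Genes called in floxed against wild-type numbered 110 as reported, 178 centred on array medians, 166 with dim genes left out, 208 with array weights, 193 with only the 2 groups fitted, 2 with the sex covariate, 10 with the T cell covariate and 6 with floxed 2 alone, and 18 to 240 without one array. In delta against wild-type they numbered 15 as reported, 3 centred, 0 with every probe set kept, 9 with the trended prior, 0 with only the 2 groups, 3 with the sex covariate and 0 with floxed 2 alone, and 0 to 23 without one array. In delta against floxed it was 1 as reported, 3 with the trended prior and 2 with only the 2 groups, and 1 to 10 without one array. The cause was not tested.

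Same-numbered arrays correlated at -0.083 to 0.12 after subtraction of group means, and differently numbered ones at -0.17 to 0.21. No pairing by number was thus seen, though so few arrays per group cannot exclude one. With the replicate number as a block, 188 genes and 1 member were called between floxed and wild-type, 6 and 0 between delta and wild-type, and 2 and 0 between delta and floxed. Under the block Dntt was 0.021 in delta minus wild-type, and Rag1 was -0.016 and Vpreb3 0.15 in delta minus floxed.

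Signs turned where estimates were small, and for Il7r in floxed minus wild-type (-0.079 with the T cell covariate, -0.19 with floxed 2 alone). In order, quantile normalization, centring and array weights gave Dntt as 0.028, 0.017 and 0.023 in floxed minus wild-type, 0.021, 0.012 and 0.016 in delta minus wild-type, and -0.0068, -0.0049 and -0.0071 in delta minus floxed. In delta minus floxed they gave Igll1 as -0.025, -0.014 and -0.00039. There the first 2 gave Myb as -0.0086 and -0.012 and Rag1 as -0.029 and -0.020, and array weights gave Lef1 as 0.022 and Vpreb3 as 0.058. The T cell covariate and floxed 2 alone gave Dntt as 0.050 and 0.068 in floxed minus wild-type and as -0.060 and -0.073 in delta minus floxed, where Lef1 was 0.096 and 0.17. There Igll1 was -0.0090 with the covariate, and Rag2 was 0.032 and Vpreb3 0.063 with floxed 2 alone. The sex covariate gave Rag2 as 0.063 in floxed minus wild-type. Without one array, delta minus floxed ran from -0.021 to 0.059 for Dntt, -0.044 to 0.044 for Igll1, -0.18 to 0.016 for Lef1, -0.043 to 0.045 for Myb, -0.087 to 0.097 for Rag1 and -0.17 to 0.15 for Vpreb3. Dntt ran from -0.064 to 0.019 in floxed minus wild-type and from -0.038 to 0.034 in delta minus wild-type. Rag2 ran from -0.19 to 0.036 in floxed minus wild-type.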
